A study of Mus musculus with 30 samples.

Results

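This report describes how nicotinamide riboside (NR) altered the day-night change of gene expression in old mouse hearts. The quantity of interest is a difference of differences, the NR by time interaction. It is the change from ZT22 (night) to ZT10 (day) in old NR hearts minus the same change in old water hearts, on the log2 scale. A positive value means that the gene was relatively higher by day with NR than with water. The members are the 12 old hearts of the 30 samples in the series, 3 in each of 4 groups, and the test was made for all 15443 genes with enough counts. All hearts came from female C57BL6 mice kept in 12:12 light and dark. Old water mice were 12 months old and drank water (labelled MQ), and old NR mice, of the same age, had drunk water that held 3 g/l NR since the age of 2 months. A set of 6 hearts from young mice of 2 months on water, 3 at ZT10 and 3 at ZT22, entered the fit and is given beside the old hearts. The study's methods describe a mixed C57Bl6J/N background, and replicates that are individual mice, each sampled at 1 of the times. The labels do not say which mice shared a cage.

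The heart clock is a feedback loop in which BMAL1 (gene Arntl) and CLOCK bind E-box sequences and drive the Per, Cry and Rev-erb genes, whose products then repress the loop. REV-ERB repressors and ROR activators compete for a separate element that sets the rhythm of Arntl itself. The loop drives many metabolic genes of the heart by time of day. NR is phosphorylated by NR kinases on its way to NAD+, a cofactor that sirtuins, PARPs and CD38 consume and that is known to feed back on the clock.

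At an adjusted p-value under 0.05 (edgeR, Benjamini-Hochberg over all genes tested) the interaction was called for 53 genes, which is 0.343% of those tested. It was positive for 36 genes (0.233%) and negative for 17 (0.11%). At an unadjusted p-value under 0.05 there were 1584 genes (10.3%), 868 positive (5.62%) and 716 negative (4.64%). This count depended on the tool, and with DESeq2 it was 1018 on all 18 hearts and 939 on the 12 old hearts. The called genes included Arntl, the metabolic regulator Klf15, the glycolytic regulator Pfkfb2, the fatty acid importer Cpt1a, the NR kinase Nmrk2, the cell cycle kinase Cdk6 and the mural cell genes Acta2 and Cspg4. Their absolute interaction had a median of 0.778 and a range from -2.16 to 2.61, against a median of 0.15 over all genes tested.

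Libraries that stood apart were as follows. Totals ran from 3922137 to 7562215 counts over the 12 old hearts. Old water ZT22 replicate 1 (3922137 counts) and old NR ZT22 replicate 1 (4364594 counts) were the shallowest and separated from the other old hearts on the second principal component (15.1% of the variance). Without both of them, 90 genes were called, 62 positive and 28 negative, and these included 46 of the 53. Old NR ZT10 replicates 1 and 3 differed little (chi-square per gene 1.066, p = 4.31e-08, against at least 1.711 for every other pair of hearts in a group), and without Sun1 they did not differ detectably (p = 0.0752, chi-square test over genes). They were kept as 2 hearts. When they were summed into 1 library, 40 genes were called, 30 positive and 10 negative, all among the 53.

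Promoter sequences of the genes that carry E-boxes are shown because the E-box is the element that BMAL1 and CLOCK bind. Promoters (250 bases before to 50 after the start, RefSeq, GRCm38.p6) were found for 11343 of the tested genes and 45 of the 53. The E-box CACGTG, which reads the same on either strand, occurred in 7 of these 45 (15.6%) and in 11.5% of all promoters. The 7 genes were Klf15, Pfkfb2, Cdk6, Hsd17b7, Bcar3, Inf2 and Gm5113. In the lines that follow, capitals mark the E-box and each sequence ends at the base before the start.
Klf15, chr6:90462326-90462575, plus strand: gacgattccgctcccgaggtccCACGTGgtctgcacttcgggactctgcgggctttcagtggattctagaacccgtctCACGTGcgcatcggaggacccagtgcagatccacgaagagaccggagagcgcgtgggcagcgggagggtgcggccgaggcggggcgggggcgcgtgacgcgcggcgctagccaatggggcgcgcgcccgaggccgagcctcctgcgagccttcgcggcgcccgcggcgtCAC
Cdk6, chr5:3343643-3343892, plus strand: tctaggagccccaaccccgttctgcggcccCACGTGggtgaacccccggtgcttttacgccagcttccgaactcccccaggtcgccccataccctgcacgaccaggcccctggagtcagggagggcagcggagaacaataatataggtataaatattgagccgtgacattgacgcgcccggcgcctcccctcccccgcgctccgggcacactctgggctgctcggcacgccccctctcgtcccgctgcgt
Pfkfb2, chr1:130715822-130715851, minus strand: aagcgcccCACGTGactcgccccaaccccc
Hsd17b7, chr1:169969206-169969455, minus strand: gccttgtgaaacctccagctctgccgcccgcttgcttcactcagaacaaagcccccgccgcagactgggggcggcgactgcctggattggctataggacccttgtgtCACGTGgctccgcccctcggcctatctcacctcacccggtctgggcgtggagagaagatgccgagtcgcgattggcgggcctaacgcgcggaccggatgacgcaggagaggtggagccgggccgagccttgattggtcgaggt
Klf15 held 3 E-boxes, the last of which spans the start, and 1.17% of all promoters held at least 2. In Pfkfb2 the E-box lay at -22 to -17 of 1 of its 3 RefSeq starts. For Arntl the ROR element is shown, since REV-ERB and ROR act there. This element, searched on both strands, occurred in 1.89% of all promoters and in 1 of the 45 (2.22%), which was Arntl. Capitals mark the match at -9 to 1 in 30 bases around the second of its 2 RefSeq starts, and another match, not printed, lay at 28 to 37.
Arntl, chr7:113207491-113207520, plus strand: gattggtcggaAAGTAGGTTAgtggtgcga
The D-box (TTATGTAA or TTACGTAA, both strands) was in 0 of the 45 and in 0.855% of all promoters, and the CRE (TGACGTCA) was in 2, Sh3gl2 and Trmt5 (4.44% against 3.41%).

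**Figure D1:**
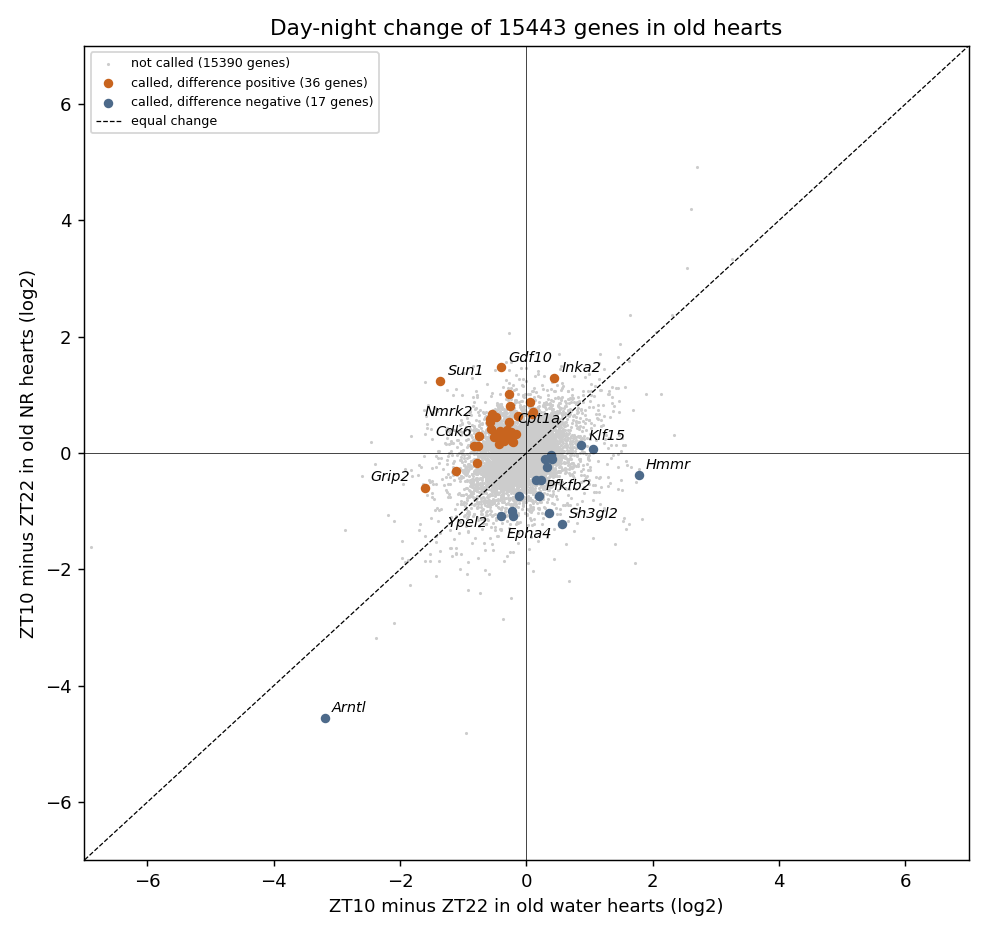
Day-night change (ZT10 minus ZT22, log2) in old water hearts on the x axis and in old NR hearts on the y axis for each of the 15443 genes, with the 53 called genes in colour and the dashed line where both changes are equal. The 36 genes with a positive interaction lie above the line and the 17 with a negative interaction below it, and 39 of the 53 lie where the signs of the 2 changes are opposite.

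In 39 of the 53 genes (73.6%) the fitted day-night values of the 2 groups had opposite signs, against 6458 of all 15443 genes (41.8%). The interaction chose these genes, so this is a description, and many of the values were near 0. Of the 39, the day-night change was called in both groups for 4, Cdk6, Nmrk2, Cspg4 and Uspl1, in 1 group for 34 and in neither for 1. By their fitted values, 29 of the 39 were lower at ZT10 than at ZT22 with water and higher with NR. The reverse held for 10 genes. The value kept its sign and was larger with NR in 9 genes, among them Arntl, Ypel2, Epha4 and Inka2, and kept its sign but was smaller in 5, among them Grip2 and Klf15. As the interaction is a test of the difference itself, it was set beside the separate day-night calls, which do not test a difference. Between the times, 649 genes were called in old water hearts (4.2% of those tested), 829 in old NR hearts (5.37%) and 2219 in young hearts (14.4%). Of the 409 genes called in old water hearts only, 22 had the interaction (5.38%). The interaction was also called in 22 of 589 genes for old NR hearts only (3.74%), in 8 of the 240 genes of both (3.33%) and in 1 of the 14205 genes of neither (0.00704%). At an unadjusted p-value under 0.05 the interaction was found in 207 of the 409 (50.6%), 283 of the 589 (48%), 28 of the 240 (11.7%) and 1066 of the 14205 (7.5%). These shares are a description, since the values that set the classes also enter the interaction. Most genes that passed the day-night threshold in only 1 of the groups did not pass the adjusted threshold for a difference. A missing call does not show that there was no difference. In simulated data edgeR recovered 63.5% of interactions of 1 on the log2 scale. The median absolute day-night change was smaller, 0.47 with water in the 409 genes and 0.411 with NR in the 589. The values of NR and water hearts did not overlap at either time in 37 of the 53, against 3.06% of all genes tested (18.8% at ZT10 and 14.7% at ZT22), which is a description, as the same values gave the calls. NR against water was called in 16 of the 53 at ZT10 (0.285% of all genes) and in 11 at ZT22 (0.35%).

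**Figure D2:**
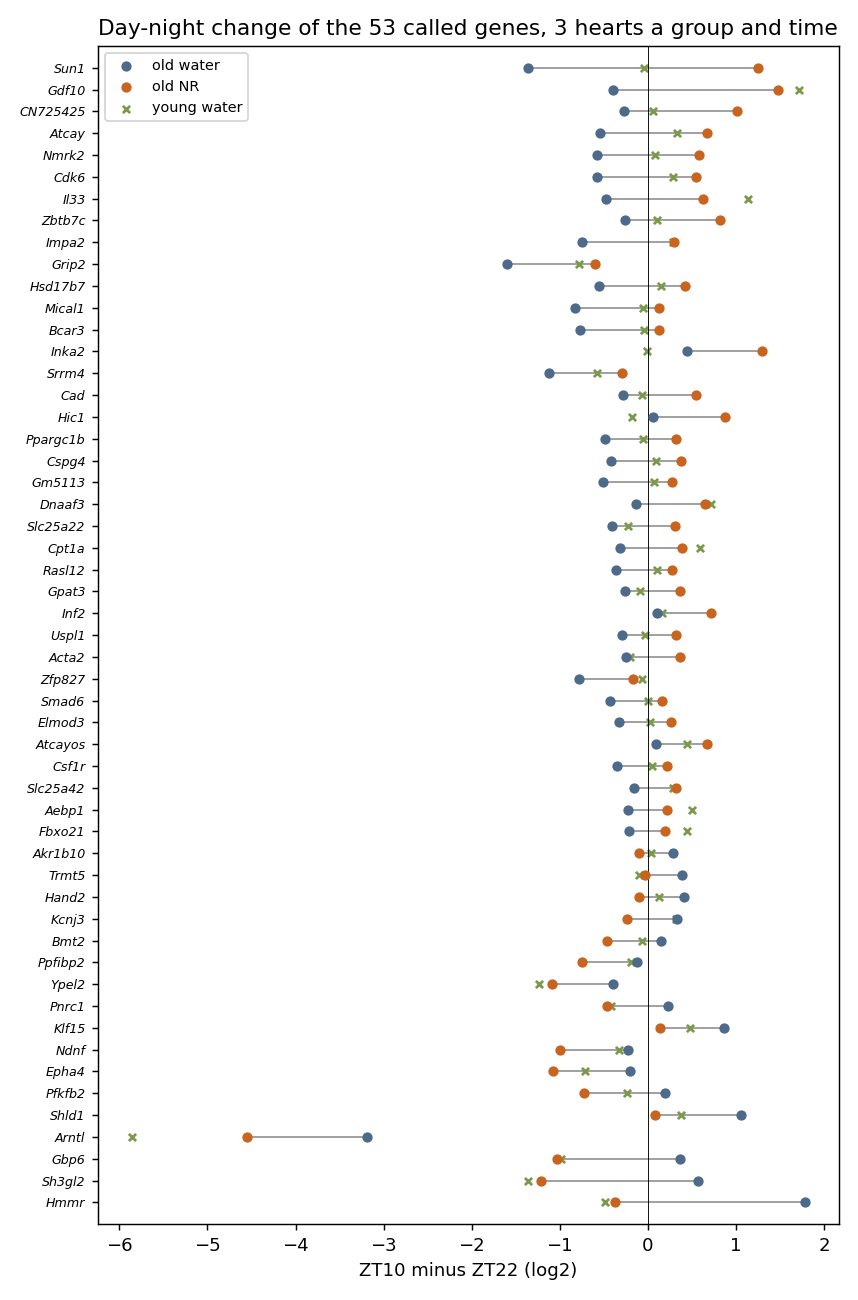
Day-night change (ZT10 minus ZT22, log2) of the 53 called genes in old water, old NR and young water hearts, 3 hearts per group and time, sorted by the interaction, with a line from the water to the NR value. Of the 36 genes with a positive interaction, 29 go from a negative change with water to a positive change with NR, while Grip2, Srrm4 and Zfp827 stay negative. The young value lies closer to the NR than to the water value in 38 of the 53.

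The young hearts do not enter the value of the interaction, but they share the fit and so its p-values, and with the 12 old hearts alone 63 genes were called, 45 of them among the 53. The day-night change of the young hearts lay closer to that of old NR than to that of old water hearts in 38 of the 53 genes (71.7%), and in 53.1% of all genes tested. Among the 19 called genes that were also called between the times in young hearts, this was so for 18 (94.7%), against 55.9% of all 2219 genes called in young hearts. No test was made of these shares, since genes are not independent replicates.

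Among the clock genes, Arntl was the only called member of 20 tested, while 0.343% of all genes tested were called. Its normalized counts (TMM, counts scaled to a common library size) at ZT10 were 38.5, 36.5 and 53.5 in old water hearts and 13.1, 26.1 and 21 in old NR hearts. At ZT22 they were 336, 401 and 417 with water and 509, 457 and 490 with NR. Every NR heart was therefore below every water heart at ZT10 and above every water heart at ZT22. The day-night change was -3.19 with water, -4.55 with NR and -5.86 in young hearts on the log2 scale. The interaction was -1.36 (SE 0.26, adjusted p = 0.0201, edgeR), a 2.57-fold larger drop with NR. Leaving out old water ZT10 replicate 3, old NR ZT10 replicate 1 or old NR ZT10 replicate 3 ended this call (adjusted p up to 0.121, edgeR).

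Its partners in the positive arm, Clock and Npas2, had interactions of -0.28 (adjusted p = 0.503, edgeR) and -0.26 (adjusted p = 0.747, edgeR), and neither was called. Of the 8 repressors tested, 0 were called and 1, Per1, had an unadjusted p-value under 0.05. Over all genes tested, 10.3% reached this level, so 1 of 8 was close to the background share. Per1 counts at ZT10 were 1003, 967 and 1093 with water and 788, 964 and 856 with NR, and at ZT22 they were 313, 373 and 490 with water and 479, 572 and 383 with NR. The groups overlapped at ZT22 and nowhere at ZT10, and the interaction was -0.49 (SE 0.19, adjusted p = 0.35, edgeR). The day-night changes of Per2 (2.05 with water, 2.08 with NR), Per3 (1.63 and 1.58), Cry1 (-0.47 and -0.35), Cry2 (0.61 and 0.47), Ciart (2.31 and 2.38), Bhlhe40 (0.76 and 0.89) and Bhlhe41 (0.46 and 0.71) on the log2 scale were not called different. The sign of the interaction turned in some of the 10 other settings and of the 12 fits that leave out a heart for Per2 and Bhlhe40, and in some of the 12 fits alone for Per3 and Ciart.

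Of the REV-ERB and ROR receptors, 0 of 5 were called, against 0.343% of all genes tested. Rora, an activator of Arntl, came closest. Its counts were 663, 729 and 760 with water and 597, 560 and 595 with NR at ZT10, and 537, 565 and 525 with water and 553, 682 and 719 with NR at ZT22. The NR hearts lay below the water hearts at ZT10, and the groups overlapped at ZT22. The interaction was -0.58 (SE 0.15, adjusted p = 0.115, edgeR), and Rora was called in 5 of the 10 other settings. For the REV-ERB genes it was 0.40 in Nr1d1 (adjusted p = 0.521, edgeR) and -0.21 in Nr1d2 (adjusted p = 0.667, edgeR), and for Rorb it was -0.27 (adjusted p = 0.837, edgeR). The PAR bZIP factors Dbp (0.07), Tef (-0.11) and Hlf (-0.09) and their competitor Nfil3 (-0.30), which act on D-boxes, were not called (0 of 4), and the sign turned for Dbp without both shallow hearts and without old water ZT22 replicate 2, and for Hlf without old NR ZT22 replicate 2.

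**Figure D3:**
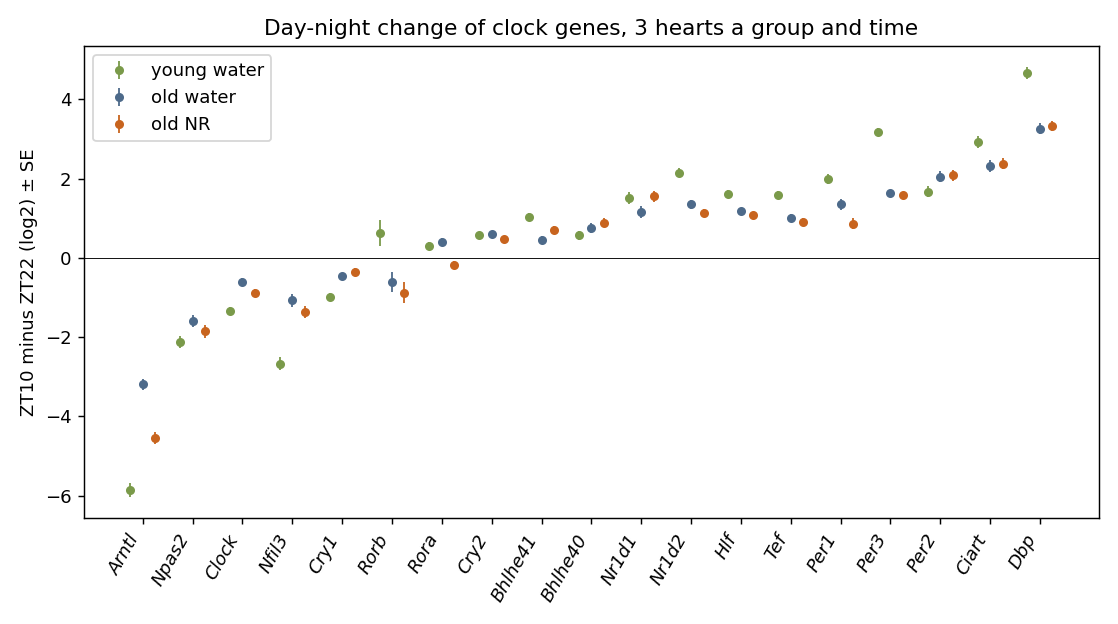
Day-night change (ZT10 minus ZT22, log2, with SE) of 19 clock genes in young water, old water and old NR hearts, 3 hearts per group and time. The SE was derived from the F-test. Old water and old NR points lie close together for most genes, and Arntl shows the largest gap, from -3.19 with water to -4.55 with NR.

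Beyond the core loop, 1 of 23 clock-controlled outputs was called, Klf15 (4.35%, against 0.343% of all genes). KLF15 is a zinc finger factor that responds to glucocorticoids and controls the use of lipids and amino acids in heart and muscle. At ZT10 Klf15 had 850, 780 and 880 counts with water and 647, 729 and 737 with NR, and at ZT22 it had 444, 469 and 459 with water and 709, 665 and 567 with NR. The groups did not overlap at either time. The gene was 1.82-fold higher at ZT10 than at ZT22 with water and 1.1-fold with NR. The interaction was -0.73 (SE 0.11, adjusted p = 0.00562, edgeR), and the young change was 0.48. Of the 23 outputs, 10 had an unadjusted p-value under 0.05, 9 of them negative (43.5% against 10.3% of all genes), with a median interaction of -0.109 against -0.00971 over all genes tested. Among 20 glucocorticoid targets, 7 had an unadjusted p-value under 0.05 (35%, against 10.3%), 6 of them negative, with a median of -0.135. Klf15, Per1, Tsc22d3 (-0.37, adjusted p = 0.197, edgeR) and Klf9 (-0.26, adjusted p = 0.364, edgeR) were among the 6, and Tsc22d3 and Klf9 were chosen after their values were seen.

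Of the genes of fuel use, Cpt1a and Ppargc1b had a positive and Pfkfb2 a negative interaction. Cpt1a is the liver isoform of the carnitine palmitoyltransferase that admits long-chain fatty acids into mitochondria. It had 733, 843 and 797 counts with water and 1061, 1002 and 1023 with NR at ZT10, and 853, 959 and 1118 with water and 794, 692 and 870 with NR at ZT22. NR hearts were above all water hearts at ZT10, and the groups overlapped at ZT22. The day-night change was -0.31 with water, 0.39 with NR and 0.59 in young hearts, and the interaction was 0.70 (SE 0.14, adjusted p = 0.0201, edgeR). Leaving out old water ZT10 replicates 1 or 3, old NR ZT10 replicate 1 or old NR ZT22 replicate 2 ended the call (adjusted p up to 0.0672, edgeR). Ppargc1b encodes the coactivator PGC-1beta, which drives mitochondrial and fatty acid oxidation genes. Its counts at ZT10 were 263, 307 and 329 with water and 333, 354 and 360 with NR, and at ZT22 they were 436, 411 and 415 with water and 290, 236 and 321 with NR. The groups did not overlap at either time, and the interaction was 0.80 (SE 0.16, adjusted p = 0.0258, edgeR). It was not called when old NR ZT10 replicates 1 and 3 were summed, and among the 12 leave-one-heart-out fits it was called in 4 (adjusted p up to 0.0865 in the others, edgeR), those that dropped old water ZT22 replicates 1 or 3 or old NR ZT22 replicates 1 or 3.

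Of 45 tested genes of fatty acid oxidation and PPAR targets, 2 were called (4.44% against 0.343%), both positive. An unadjusted p-value under 0.05 was found for 12, all 12 positive (26.7%, against 5.62% of all genes that were positive at this level). The other members did not follow, since 31 of the 45 were negative and the median was -0.098. Besides the called pair, the 12 held Ucp3, a mitochondrial uncoupling protein (1.03, adjusted p = 0.115, edgeR), and Angptl4, an inhibitor of lipoprotein lipase (2.08, adjusted p = 0.206, edgeR). Ucp3 and Angptl4 were each called in 1 of the 10 other settings, without both shallow ZT22 hearts, so the count of called members depended on the setting. Both were chosen after their values were seen, and in Angptl4 the values within a group were as far apart as 91.8, 305 and 483 in old water hearts at ZT22. Gpat3, which starts glycerolipid synthesis, and Slc25a42, a mitochondrial carrier of coenzyme A, were called with 0.63 (SE 0.11, adjusted p = 0.0155, edgeR) and 0.48 (SE 0.09, adjusted p = 0.0201, edgeR). Slc25a42 was called in 6 of the 12 fits that leave out a heart.

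Pfkfb2 is the cardiac form of the enzyme that sets fructose 2,6-bisphosphate, the activator of glycolysis. At ZT10 it had 900, 814 and 921 counts with water and 661, 678 and 693 with NR, and at ZT22 it had 898, 746 and 674 with water and 1291, 1134 and 962 with NR. NR hearts were below all water hearts by day and above all of them by night. The day-night change was 0.20 with water and -0.73 with NR, and the interaction was -0.93 (SE 0.15, adjusted p = 0.00925, edgeR). It was the 1 called gene of 43 in glucose uptake, glycolysis and glycogen (2.33%, against 0.343%), of which 3 had an unadjusted p-value under 0.05 (6.98%, against 10.3% of all genes). In the 53 tested genes of insulin, FOXO, AMPK and mTOR signaling, 0 were called and 11 had an unadjusted p-value under 0.05 (20.8%, against 10.3% of all genes), 9 of them negative. The smallest p-values were those of Pik3ip1, an inhibitor of PI3 kinase (-0.54, adjusted p = 0.102, edgeR), and Irs1, the insulin receptor substrate (-0.90, adjusted p = 0.145, edgeR). This count of 0 depended on the setting. Pik3ip1 was called in 3 of the 10 other settings, with adjusted p = 0.0417 in edgeR and 0.0352 in DESeq2 on the 12 old hearts alone. The NR by time interaction of Irs1 was called in 4 of the 10, with adjusted p = 0.0417 in edgeR and 0.00606 in DESeq2 on those hearts.

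The NR kinase itself was among the called genes. Nmrk2, the muscle form of the kinase that turns NR into nicotinamide mononucleotide, lies at chr10:81198170-81202051. It had 110, 112 and 112 counts with water and 164, 214 and 173 with NR at ZT10, and 190, 154 and 163 with water and 87.3, 146 and 125 with NR at ZT22. The groups did not overlap at either time and traded places, with NR hearts above water hearts by day and below them by night. The day-night change was -0.58 with water, 0.58 with NR and 0.08 in young hearts, and the interaction was 1.17 (SE 0.22, adjusted p = 0.0201, edgeR). Leaving out old water ZT10 replicate 1, old water ZT10 replicate 3 or old NR ZT10 replicate 2 ended the call (adjusted p up to 0.0728, edgeR). The other 2 genes of this locus were called in the same direction. Atcay (chr10:81204508-81230833), which encodes caytaxin, had 1.21 (SE 0.25, adjusted p = 0.0295, edgeR), and Atcayos (chr10:81194609-81210877), a transcript of the opposite strand that overlaps both, had 0.58 (SE 0.11, adjusted p = 0.0202, edgeR). Atcay was called in 5 of the 12 fits that leave out a heart and not with edgeR on the 12 old hearts alone (adjusted p = 0.0788), and Atcayos in 6 of the 12. The library kit kept the strand, but the strand setting of the counting was not given in the sources used here, and reads that fell on more than 1 gene were not counted, so the counts of these genes are uncertain.

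Of the 15 NAD synthesis genes tested, Nmrk2 was the 1 called (6.67%, against 0.343% of all genes), and 5 had an unadjusted p-value under 0.05 (33.3%, against 10.3%), 4 of them positive. Naprt, which takes nicotinic acid into NAD+ synthesis, was the next (0.58, SE 0.14, adjusted p = 0.0806, edgeR), and Nampt, the main salvage enzyme, had -0.32 (SE 0.14, adjusted p = 0.428, edgeR). Both were chosen after their values were seen. Of 27 genes that consume NAD+ or break down its precursors, 0 were called and 1 had an unadjusted p-value under 0.05 (3.7%, against 10.3%), with a median of -0.0118.

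**Figure D4:**
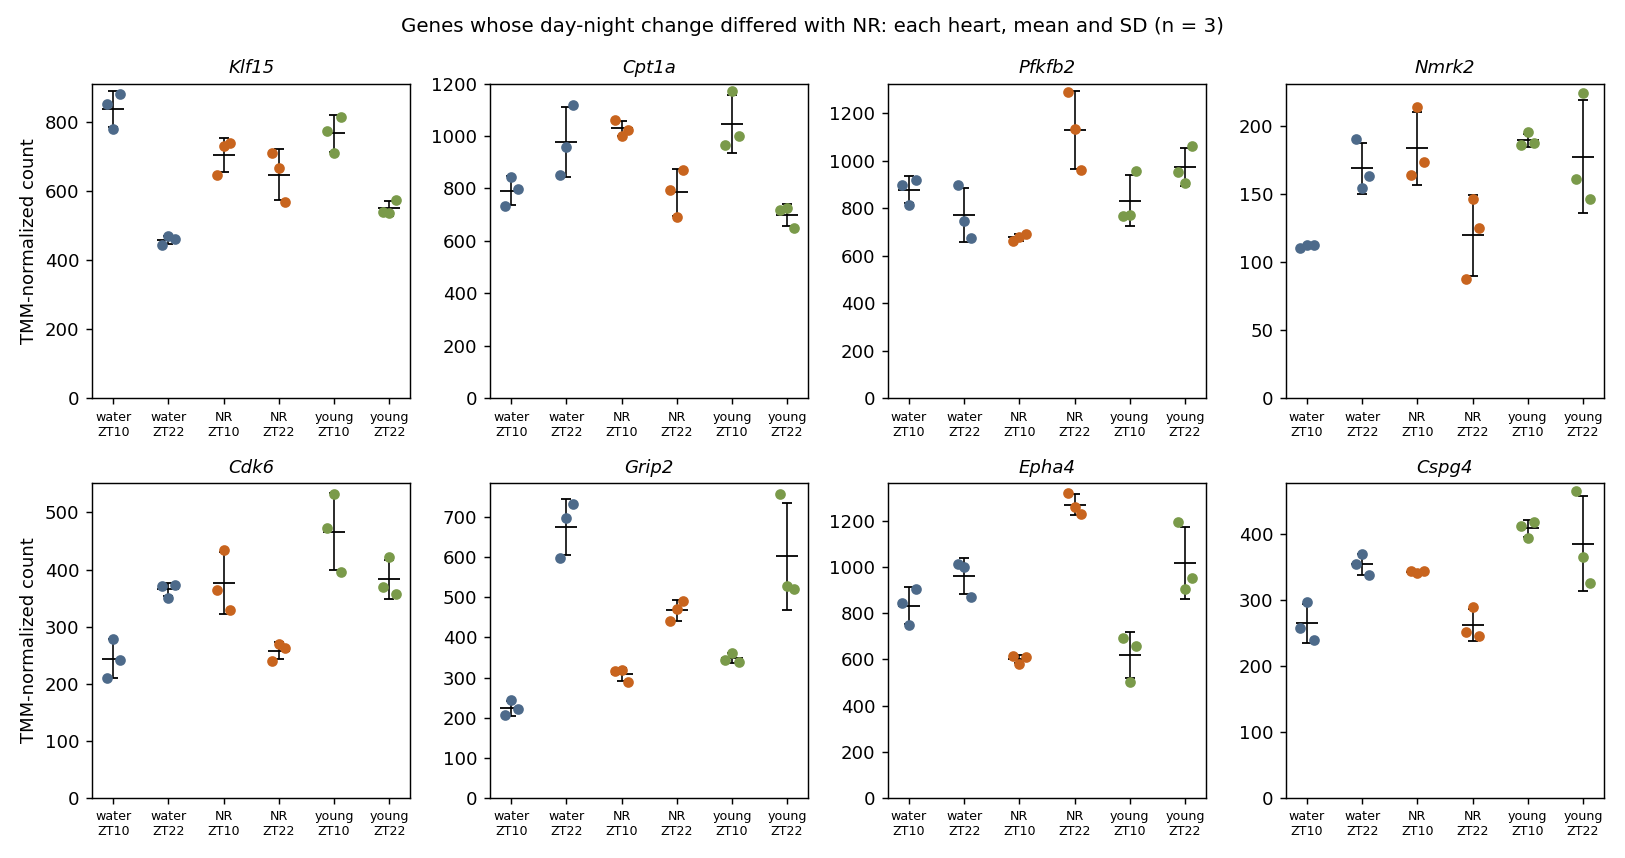
TMM-normalized counts of 8 called genes in each heart (points), with mean and SD of the 3 hearts of a group (bars), for old water, old NR and young water hearts at ZT10 and ZT22. Klf15, Pfkfb2 and Epha4 were lower with NR at ZT10 and higher at ZT22, while Cpt1a, Nmrk2, Cdk6, Grip2 and Cspg4 were higher with NR at ZT10 and had a lower mean with NR at ZT22.

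The next genes were named for the size of their interaction and belong to no single list. Cdk6, the cyclin D kinase of the G1 phase, had 210, 279 and 242 counts with water and 364, 435 and 329 with NR at ZT10, and 372, 351 and 373 with water and 240, 269 and 263 with NR at ZT22. The groups did not overlap at either time, and the order of NR and water reversed between them. The interaction was 1.11 (SE 0.16, adjusted p = 0.00562, edgeR), a change from 0.671-fold to 1.45-fold between day and night. Grip2, a scaffold with PDZ domains, was low by day in both groups. It had 206, 243 and 222 counts with water and 317, 319 and 289 with NR at ZT10, and 599, 698 and 734 with water and 441, 471 and 492 with NR at ZT22. The day-night ratio was 0.329 with water and 0.657 with NR, and the interaction was 1.00 (SE 0.16, adjusted p = 0.00897, edgeR). NR hearts thus kept a day-night difference in Grip2, but a smaller one, and the young change (-0.78) was near that of NR (-0.61).

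Epha4, a receptor for ephrins, had 844, 750 and 907 counts with water and 613, 582 and 609 with NR at ZT10, and 1013, 1001 and 873 with water and 1323, 1263 and 1230 with NR at ZT22. Its day-night change grew from -0.20 with water to -1.08 with NR, and the interaction was -0.88 (SE 0.15, adjusted p = 0.0109, edgeR). Ypel2 had 426, 474 and 478 counts with water and 364, 352 and 335 with NR at ZT10, and 602, 562 and 649 with water and 792, 686 and 767 with NR at ZT22. NR hearts lay below all water hearts by day and above them by night in both genes, and Ypel2 had an interaction of -0.69 (SE 0.10, adjusted p = 0.00562, edgeR) and a young change of -1.24. Further calls were Mical1, an oxidase of actin filaments (0.95, SE 0.15, adjusted p = 0.00897, edgeR), Impa2, an inositol monophosphatase (1.04, SE 0.18, adjusted p = 0.0109, edgeR), Inka2 (0.85, SE 0.15, adjusted p = 0.0155, edgeR) and Shld1, a subunit of the shieldin complex of DNA repair (-0.98, SE 0.16, adjusted p = 0.00897, edgeR).

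The calls that held in every fit were those of 12 genes. Cdk6, Epha4, Gm5113, Gpat3, Grip2, Impa2, Inka2, Klf15, Mical1, Pfkfb2, Shld1 and Ypel2 were called in each of the 12 fits without 1 heart and in each of the 10 other settings. The direction of all 53 was the same in all of these fits. Leaving out old water ZT10 replicate 3 ended the most calls and left 15. Without it the calls of Acta2, Il33, Cspg4 and Uspl1, which held without any other single heart, were lost (adjusted p up to 0.0589, edgeR).

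The remaining genes with the largest interactions span low and high levels. Gdf10, a ligand of the TGF-beta family, had 17.5, 22.1 and 18.6 counts with water and 28.3, 31 and 28.7 with NR at ZT10, and 24.1, 23.7 and 28.6 with water and 10.7, 8.98 and 11.9 with NR at ZT22. The groups did not overlap at either time, and the interaction was 1.87 (SE 0.34, adjusted p = 0.0155, edgeR), with a young change of 1.71 beside 1.47 with NR and -0.40 with water. Il33, an alarmin cytokine, had 102, 114 and 101 counts with water and 142, 135 and 141 with NR at ZT10, and 152, 165 and 128 with water and 106, 77.8 and 92.1 with NR at ZT22. Its groups did not overlap either, and the interaction was 1.10 (SE 0.20, adjusted p = 0.0155, edgeR). Sh3gl2, an endophilin of endocytosis, had -1.78 (SE 0.34, adjusted p = 0.0201, edgeR), with means of 47.2 at ZT10 and 29.6 at ZT22 in water hearts, 24.4 and 57.6 in NR hearts, and 10.2 and 26.2 in young hearts. Gbp6, a guanylate-binding protein induced by interferon, had -1.40 (SE 0.28, adjusted p = 0.0244, edgeR), but it is uncertain, as it has close copies in the genome and reads with several map positions were removed, and 0 of 33 interferon response genes on the list were called (4 at an unadjusted p-value under 0.05, 12.1% against 10.3%, all 4 negative). The enzyme of cholesterol synthesis Hsd17b7 had 0.98 (SE 0.18, adjusted p = 0.017, edgeR). Of the 35 tested list genes of cholesterol and fatty acid synthesis, 0 were called, against 0.343% of all genes. An unadjusted p-value under 0.05 was found for 8 of the 35 (22.9%, against 10.3%), 6 of them negative. The other genes with the largest values were Zbtb7c (1.08), CN725425 (1.28), Ndnf (-0.77), Pnrc1 (-0.70), Ppfibp2 (-0.62) and Bmt2 (-0.62), with adjusted p-values from 0.0172 to 0.0325 (edgeR). Several of these calls were weakly held. When a single heart was left out, Zbtb7c was called in 1 of the 12 fits, CN725425 in 2, Bmt2 in 4, Ndnf in 5, Ppfibp2 and Gbp6 in 6, Sh3gl2 in 8, and Pnrc1, Gdf10 and Hsd17b7 in 10. Of the 10 other settings, 7 called Zbtb7c and 6 called CN725425, and DESeq2 called neither on all 18 hearts or on the 12 old hearts alone.

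The largest interaction of the 53 called genes was that of Sun1, which was high in 4 of the 12 old hearts. Over all genes tested, called or not, values ran from -3.86 to 5.27. Sun1 encodes a protein of the inner nuclear membrane that ties the nucleus to the cytoskeleton. Its counts were 786, 795 and 857 in old water hearts and 819, 2435 and 2258 in old NR hearts at ZT10, and 3844, 1797 and 752 in old water hearts and 849, 747 and 745 in old NR hearts at ZT22. The groups overlapped at both times, and the 6 young hearts lay between 752 and 828. The interaction was 2.61 (SE 0.52, adjusted p = 0.0244, edgeR), and it was called in 5 of the 12 fits without 1 heart, those without old NR ZT10 replicate 1, any of the 3 old water ZT22 hearts or old NR ZT22 replicate 1. The call of Sun1 was also lost on the 12 old hearts alone, with edgeR (adjusted p = 0.0634) and with DESeq2 (adjusted p = 0.133). Hmmr, a spindle protein of dividing cells, had the most negative value of the 53 called genes, -2.16 (SE 0.45, adjusted p = 0.0325, edgeR), at counts of 4.51 to 31.4. It was called in 3 of the 12 fits without 1 heart, those without old water ZT10 replicate 2, old water ZT22 replicate 2 or old NR ZT22 replicate 2. Of the 10 other settings, 5 called Hmmr. It was lost with DESeq2 on all 18 hearts (adjusted p = 0.0814), and on the 12 old hearts alone with DESeq2 (adjusted p = 0.0948) and edgeR (adjusted p = 0.062). Of 37 cell cycle and DNA replication genes, 0 were called and 9 had an unadjusted p-value under 0.05, all 9 negative (24.3%, against 4.64% of all genes), with a median of -0.243. Cdk1 (-1.90, adjusted p = 0.138, edgeR) and Ccnb2 (-1.84, adjusted p = 0.191, edgeR), which drive entry into mitosis, had the smallest p-values, at counts of 5.37 to 40.7 in old hearts. The called genes Hmmr and Cdk6 were not on this list, and Cdk6 had a positive interaction (1.11).

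Mural cells are the smooth muscle cells and pericytes of vessels. Of their 10 markers tested, 2 were called (20%, against 0.343%), both positive, 4 had an unadjusted p-value under 0.05, all 4 positive (40%, against 10.3%), and 7 were positive in all, with a median of 0.399. In bulk hearts, fewer cells of a type and less RNA per cell cannot be told apart. Acta2, smooth muscle actin, had 689, 667 and 618 counts with water and 666, 751 and 826 with NR at ZT10, and 718, 829 and 782 with water and 553, 593 and 598 with NR at ZT22. NR hearts were below all water hearts at ZT22, and the groups overlapped at ZT10. The interaction was 0.60 (SE 0.10, adjusted p = 0.0133, edgeR). Cspg4, the NG2 proteoglycan of pericytes, had 257, 297 and 239 counts with water and 343, 340 and 344 with NR at ZT10, and 354, 370 and 338 with water and 251, 289 and 245 with NR at ZT22. Its groups did not overlap at either time, and the interaction was 0.79 (SE 0.14, adjusted p = 0.0155, edgeR). Cnn1 (1.92, adjusted p = 0.0651, edgeR) and Myh11 (0.86, adjusted p = 0.0993, edgeR), contractile genes of smooth muscle, had the next smallest p-values, and were chosen after their values were seen. Cnn1 was called in 6 and Myh11 in 3 of the 10 other settings, so the count of called mural markers depended on the setting. The summed level of the 10 markers, of which Abcc9 was the most abundant and 0 were absent, ranged from 10144 to 12491 over the old hearts, and its day-night change differed by 0.0509 on the log2 scale between NR and water. Acta2 (553 to 829 counts in old hearts) and Cspg4 (239 to 370) were small parts of this sum. The sum mainly follows the abundant markers and is no measure of mural cell content. The part of mural cell content in the results of Acta2 and Cspg4 was not tested.

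Of 14 macrophage markers, Csf1r, the receptor that maintains these cells, was called (7.14%, against 0.343% of all genes). An unadjusted p-value under 0.05 was found for 4 (28.6%, against 10.3%), all 4 positive, and 12 of the 14 were positive, with a median of 0.113. It had 405, 479 and 414 counts with water and 465, 414 and 449 with NR at ZT10, and 596, 522 and 547 with water and 345, 369 and 424 with NR at ZT22. The groups overlapped at ZT10, and NR hearts were below all water hearts at ZT22. The interaction was 0.56 (SE 0.11, adjusted p = 0.0244, edgeR). It was not called when old NR ZT10 replicates 1 and 3 were summed or without both shallow hearts, and it was called in 6 of the 12 fits that leave out a heart. The summed level of the 14 markers, with Lyz2 the most abundant, was 4843, 4415 and 4380 at ZT22 and 4108, 4608 and 4114 at ZT10 in water hearts, and 3411, 3371 and 3548 at ZT22 and 3488, 3617 and 3828 at ZT10 in NR hearts. NR hearts were below all water hearts at both times, and the part of this in the Csf1r result was not tested.

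Markers of the atrium had larger negative values than most genes. All 15 atrial markers were tested, 14 had a negative interaction and 9 had an unadjusted p-value under 0.05 (60%, against 10.3% of all genes), 8 of these negative, with a median of -0.563. Kcnj3, a subunit of the potassium channel opened by acetylcholine, was the 1 called (6.67%, against 0.343% of all genes). It had 1365, 1567 and 1665 counts with water and 1261, 1167 and 1259 with NR at ZT10, and 1145, 1352 and 1165 with water and 1459, 1471 and 1433 with NR at ZT22. Its groups did not overlap at either time, and the interaction was -0.57 (SE 0.11, adjusted p = 0.0235, edgeR), called in 5 of the 12 fits that leave out a heart.

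The atrial myosin light chains varied far more between hearts. Myl7 had 697, 563 and 818 counts with water and 212, 173 and 214 with NR at ZT10, and 169, 519 and 226 with water and 325, 353 and 270 with NR at ZT22. Its interaction of -1.81 (SE 0.46, adjusted p = 0.115, edgeR) was not called, and neither were those of Myl4 (-2.04, adjusted p = 0.139, edgeR), Sln, the atrial regulator of the calcium pump (-2.66, adjusted p = 0.169, edgeR), and Mybphl (-2.85, adjusted p = 0.248, edgeR), which was chosen after its values were seen. Of the 10 other settings, edgeR on the 12 old hearts alone called Myl7 and Myl4. In these 4 genes old water ZT22 replicate 2 and young ZT10 replicate 1 were also high. The summed level of the 15 markers was 13091, 12496 and 14922 at ZT10 and 10338, 12850 and 8929 at ZT22 in water hearts, and 9721, 8411 and 9601 at ZT10 and 11077, 10393 and 9684 at ZT22 in NR hearts. Pam was the most abundant and 0 of the 15 were absent from all old hearts, although Bmp10 ranged from 2.33 to 1243. The part of this difference in the other results, such as those of Kcnj3 and Nppa, was not tested.

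**Figure D5:**
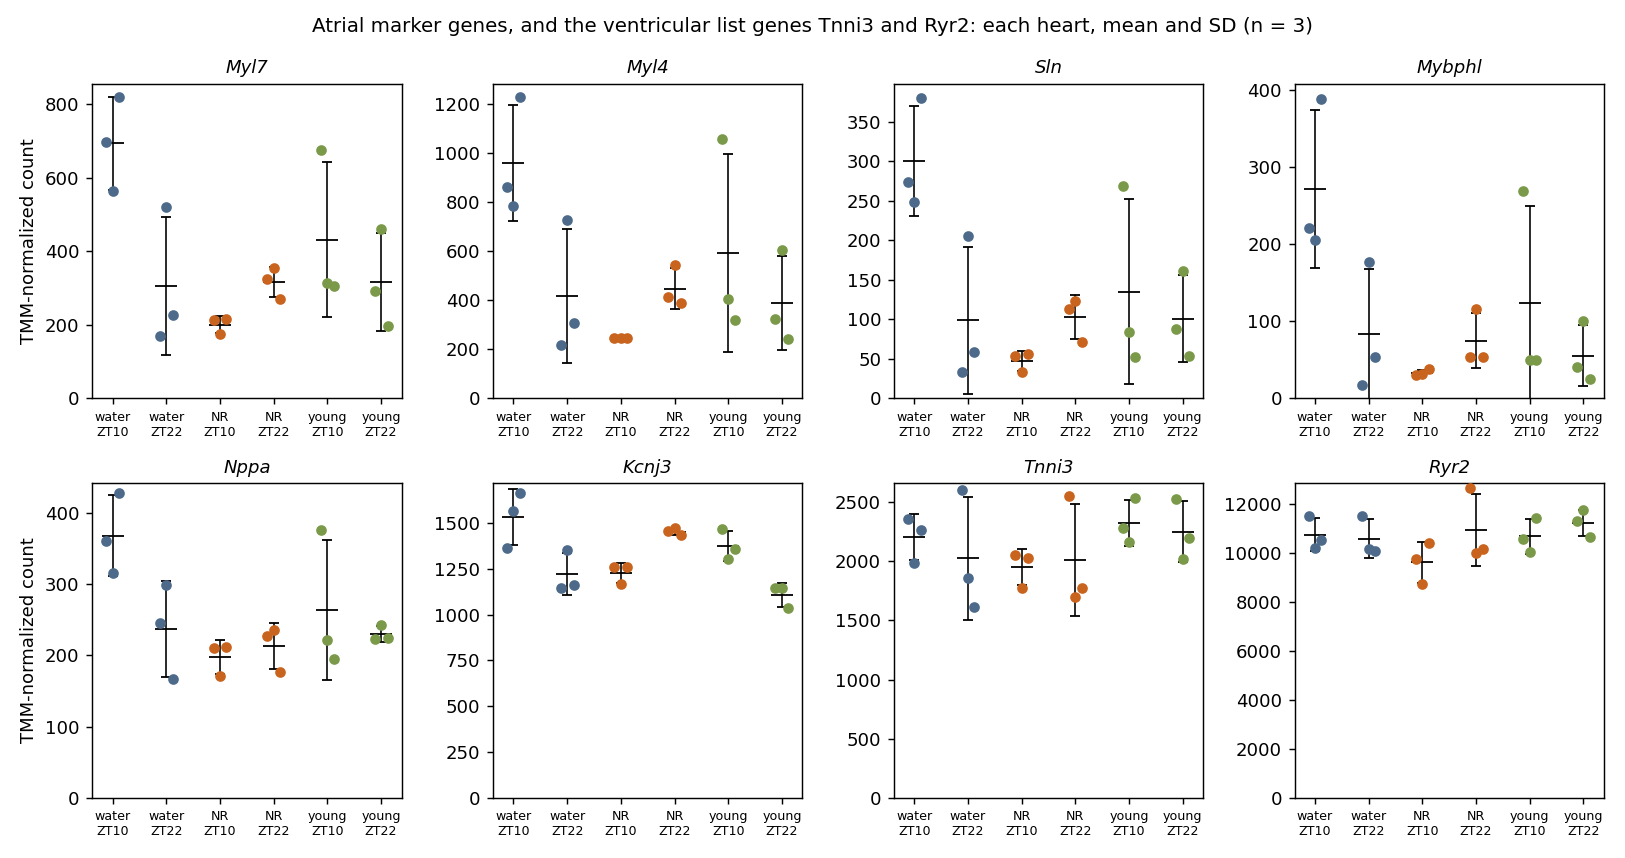
TMM-normalized counts of 6 atrial marker genes and of the ventricular list genes Tnni3 and Ryr2 in each heart (points), with mean and SD of the 3 hearts of a group (bars, drawn from 0 upward), for old water, old NR and young water hearts at ZT10 and ZT22. Myl7, Myl4, Sln and Mybphl were high in all 3 old water hearts at ZT10 and in 1 old water heart at ZT22, and low in all 3 old NR hearts at ZT10.

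The stress genes Nppa and Nppb, which encode natriuretic peptides, were not called. Nppa is also an atrial gene. It had 360, 316 and 428 counts with water and 210, 171 and 212 with NR at ZT10, and 245, 299 and 166 with water and 227, 236 and 176 with NR at ZT22. The groups were apart at ZT10 and overlapped at ZT22, and the interaction was -0.76 (SE 0.29, adjusted p = 0.33, edgeR). Nppb had an interaction of 0.28 (SE 0.28, adjusted p = 0.783, edgeR). Of 14 tested markers of cardiac stress and hypertrophy, Nmrk2 was the 1 called (7.14%, against 0.343% of all genes). At an unadjusted p-value under 0.05 there were 4 (28.6%, against 10.3%), 2 positive and 2 negative. Hand2, a factor of heart development, was called with -0.51 (SE 0.10, adjusted p = 0.0293, edgeR), its counts being 545, 476 and 566 with water and 390, 448 and 441 with NR at ZT10. Among 30 thyroid hormone and nuclear receptor factors on its list, Hand2 was the 1 called (3.33%), and 7 had an unadjusted p-value under 0.05 (23.3%). Hand2 was called in 6 of the 10 other settings and in 4 of the 12 fits that leave out a heart. The call was lost with DESeq2 (adjusted p = 0.0903) and edgeR (adjusted p = 0.0608) on the 12 old hearts alone, when old NR ZT10 replicates 1 and 3 were summed, and without both shallow hearts. Of 11 ventricular cardiomyocyte markers, 0 were called and 0 had an unadjusted p-value under 0.05. Their summed level, with Ryr2 the most abundant, ran from 41372 to 65663 over the old hearts, and both ends were ZT22 water hearts. Red blood cell, adipose, lung, T cell, B cell, neutrophil and platelet, fibroblast, endothelial, skeletal muscle and Schwann cell markers had 0 called genes, against 0.343% of all genes tested. At an unadjusted p-value under 0.05, shares were 28.6% for skeletal muscle, 25% for B cell and 14.3% for neutrophil and platelet markers. The other lists had at most 10%, against 10.3% of all genes. The summed B cell level averaged 357.3 at ZT10 and 392.6 at ZT22 with water, and 484.8 and 328.8 with NR. Its day-night change differed by 0.696 on the log2 scale, and the groups overlapped at ZT22. The part of this in other results was not tested.

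Further lists had 0 or 1 called genes. In beta-adrenergic and cAMP signaling, 0 of 42 were called and 9 had an unadjusted p-value under 0.05 (21.4%, against 10.3%), with Pde7a, a cAMP phosphodiesterase, just outside the threshold (-0.70, SE 0.16, adjusted p = 0.0557, edgeR) and Pde4b further from it (-0.39, SE 0.12, adjusted p = 0.207, edgeR). The NR by time interaction of Pde7a was called in 7 of the 10 other settings, among them DESeq2 on all 18 hearts (adjusted p = 0.0148) and on the 12 old hearts alone (adjusted p = 0.00348). Pde7a had 935, 1148 and 1196 counts with water and 876, 904 and 882 with NR at ZT10, and 698, 640 and 662 with water and 845, 1013 and 772 with NR at ZT22. NR hearts were below water hearts by day and above them by night. Trmt5, a tRNA methyltransferase, was the gene just inside the threshold (-0.42, SE 0.09, adjusted p = 0.0487, edgeR), and it was called in 0 of the 12 fits without 1 heart. Among immediate early genes 0 of 31 had an unadjusted p-value under 0.05, and among 25 heat shock and cold-inducible genes there was 1. The integrated stress response (0 called of 23), the unfolded protein response (0 of 27), autophagy (0 of 36), antioxidant genes (0 of 36), collagens, laminins and integrins (0 of 51), sarcomere genes (0 of 38) and calcium handling (0 of 44) had 0 calls, against 0.343% of all genes tested. At an unadjusted p-value under 0.05 the shares were 26.1%, 14.8%, 16.7%, 8.33%, 13.7%, 7.89% and 11.4% in that order, against 10.3% of all genes. Kcnj3 was the 1 call among 27 potassium channels (3.7%), of which 6 had an unadjusted p-value under 0.05 (22.2%).

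Large gene families had 0 called genes, against 0.343% of all genes tested, and mostly small negative values. Of 83 tested subunits of the respiratory chain and ATP synthase, 79 were negative with a median of -0.179, from a median change of 0.155 with water and -0.0227 with NR, and 1 had an unadjusted p-value under 0.05. Among 82 cytosolic ribosomal proteins 77 were negative (median -0.131), among 77 mitochondrial ribosomal proteins 53 (median -0.0593), and among 47 proteasome subunits 38 (median -0.118), against a median of -0.00971 and 8011 negative values over all 15443 genes tested. Such values were not particular to these families. Among the lists without a call, 29 of 36 autophagy genes were negative (median -0.155), as were 27 of 36 antioxidant genes (median -0.138), 32 of 44 calcium handling genes (median -0.108), 31 of 38 sarcomere genes (median -0.106) and 10 of 11 ventricular markers (median -0.136). No test was made of these counts. The share of counts in respiratory chain genes was 1.43%, 1.27% and 1.38% at ZT10 and 1.48%, 1.2% and 1.07% at ZT22 in water hearts, and 1.29%, 1.14% and 1.3% at ZT10 and 1.5%, 1.13% and 1.16% at ZT22 in NR hearts. The groups overlapped at both times. The 2 shallow hearts had the highest shares at ZT22, 1.48% and 1.5%.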

How the data were processed

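RNA of 18 hearts was measured, and 12 HL-1 cell cultures of the series were not used here. Per the labels, libraries were made with a stranded mRNA kit, and the submitters' processing notes name featureCounts 2.0.4, STAR 2.7.10a, the mm10 build, DESeq2 1.36.0, Trimmomatic 0.39 and Picard 3.0.0. The authors deposited 2 heart tables of 20764 genes. The one labelled as normalized holds the counts (totals 3922137 to 7562215, DESeq2 size factors 0.6799 to 1.445). The other is a score, counts that the authors divided by a size factor and rounded (size factors 1.005 to 1.008), and was used only for symbols and for this check. The study's methods state single-end reads, aligned with STAR and stripped of duplicates, of reads with several map positions and of ribosomal and mitochondrial reads, then counted over exons without those that fell on more than 1 gene. Removal of duplicates without molecular identifiers can lower the counts of abundant genes, and genes with close copies or overlapping neighbours lose reads. The strand setting of the counting was not given in the sources used here.

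Counts were tested with edgeR 4.0.16 (limma 3.58.1, R 4.3.3), TMM normalization and the two-sided quasi-likelihood F-test, with all 18 hearts and 1 mean per group, for genes with an average count over 5. Each SE given with edgeR was derived as the absolute log2 change divided by the square root of F. It therefore depends on the contrast tested. Depths by heart limit the precision for low genes. The fits were tested on simulated data, in which 200 of 15443 genes had an interaction of 1 on the log2 scale in either direction. Of these, edgeR recovered 127 (63.5%) and DESeq2 120 (60%), each with 3 false calls. Alternatives were DESeq2 1.42.0, the 12 old hearts alone, DESeq2 size factors, other filters, a replicate block, a library size covariate and leaving out each old heart. The 2 fits that drop or sum doubted libraries were chosen after seeing the data.

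The members, gene lists and tests were chosen with earlier results of these data known. Named genes were the 12 with the largest interaction in each direction among called genes with a mean normalized count of at least 20 over the old hearts, the called members of each list or, with none, at most the 2 of smallest p, the core clock genes, and Nppa and Nppb. Some genes that this rule names are not reported here. Genes were matched to GENCODE M21 (GRCm38), which listed 20737 of 20764.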

Additional observations from a re-analysis of the deposited data

Results flagged for a closer look

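The test of the difference itself called 53 genes whose day-night change differed between old NR and old water hearts. The largest differences among them on the log2 scale were 2.61 in Sun1 and -2.16 in Hmmr. In Sun1 the elevated hearts were old NR ZT10 replicates 2 and 3 and old water ZT22 replicates 1 and 2. In Hmmr, old water hearts had counts of 25.7, 19.2 and 31.4 at ZT10 and 4.51, 9.1 and 7.14 at ZT22. Leaving out single hearts ended the call of Sun1 in 7 of 12 fits and that of Hmmr in 9 of 12.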

How the results depend on the processing

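All 53 genes kept their direction in every alternative run. DESeq2 on all hearts called 60 genes (23 negative), DESeq2 on the 12 old hearts 63 (28 negative), edgeR on the 12 old hearts 63 (26 negative), DESeq2 size factors 53, no filter 54 and filterByExpr 52. A library size covariate gave 96 calls, 48 positive and 48 negative, which lowered the positive share from 67.9% to 50%. Without both shallow ZT22 hearts there were 90 calls (62 positive, 28 negative), and with old NR ZT10 replicates 1 and 3 summed 40 (10 negative). Leaving out 1 old heart gave from 15 (without old water ZT10 replicate 3) to 78 calls (without old water ZT22 replicate 1), from 10 to 57 of them positive and from 5 to 21 negative, and 22 without old NR ZT10 replicate 1, 29 without old NR ZT10 replicate 3 or old water ZT10 replicate 1, and 32 without old NR ZT10 replicate 2. Core clock calls were 2 (Arntl and Rora) in DESeq2 and edgeR on the 12 old hearts, with the covariate, with the block and without both shallow hearts, and from 0 to 2 when 1 heart was left out. The share of genes called between the times in only 1 old group that had the interaction was 7.2% with DESeq2 on the 12 old hearts and from 1.38% to 5.08% when 1 heart was left out. The cause of these moves was not tested. The replicate numbers were not taken to pair the hearts, since the labels do not say that they pair mice. The correlation of deviations in the 18 same-numbered pairs ran from -0.101 to 0.163. It was positive in 15 of them, with a median of 0.0423, against a median of -0.0262 for other pairs. Whether the numbers mark a pairing was not tested. The replicate block called 77 genes (32 negative), the 53 among them; 6 of 12 hearts correlated best with their own number.

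The sign of uncalled clock genes reversed in some fits. The NR by time interaction of Per2 was -0.00588 with DESeq2 on all hearts and -0.0232 with the covariate, and lay between -0.0621 and 0.181 without 1 heart. Without 1 heart, Bhlhe40 ran from -0.0179 to 0.255, Dbp from -0.0361 to 0.256, Ciart from -0.141 to 0.254, Per3 from -0.125 to 0.0765 and Hlf from -0.155 to 0.0079. Without both shallow hearts Bhlhe40 was -0.0347 and Dbp -0.0113.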
